A study of Rattus norvegicus with 12 samples.

Results

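Gene expression was compared between the left ventricles of rats given amiodarone and rats given only the vehicle. The comparison used the 6 heart arrays of the 12 arrays in the series, chosen by their labels and not by any measured value; the other 6 arrays were of whole blood. Each heart array carried RNA from 1 pool, with 3 pools of male Sprague-Dawley rats treated with amiodarone by mouth at 300 mg/kg per day for 10 days and 3 pools of rats of the same strain and sex that received 1% methylcellulose. The rats had no other treatment or genetic change named in the labels, weighed 290 to 320 g and were aged 10 weeks when dosing began (11 weeks in the sample table). The number of rats in a pool is not listed, so the p-values measure the spread between pools only, at 1 dose and 1 time point.

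Amiodarone is an iodinated drug used against arrhythmias. It blocks potassium and other ion channels of the heart muscle cell, and, being cationic and amphiphilic, it collects in lysosomes, where it hinders the breakdown of phospholipids. The ventricular wall holds muscle cells, fibroblasts, vessels with their endothelium and smooth muscle, nerve endings, resident immune cells and blood, and all of these contribute RNA to an array. The families described here set how such cells respond to hormones and load: transcription factors, growth factor and peptide signalling, the cytoskeleton, membrane carriers and the enzymes of lipids and purines.

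Between 21233 and 25032 of 43379 non-control spots were well above background on the heart arrays, and their 75th percentile of intensity averaged 143 ± 30.9 (SD, n = 3) for vehicle and, for amiodarone, 130 ± 28.2 (SD, n = 3). Levels are log2 signals relative to that percentile of the same array, and differences are amiodarone minus vehicle, each with n = 3 pools per group. The first principal component held 50.9% of the variance and separated the treatments. The second, with 23.3%, set amiodarone pool 1 (at -39.0) apart from amiodarone pool 3 (at 35.1). In limma, 1477 of 17772 features passed an adjusted p of 0.05, or 8.31%, with 747 higher (4.20%) and 730 lower (4.11%). The groups did not overlap at 32.4% of features, and the median difference over all features was 0.02. A called gene is one past that threshold, and the list counts below are to be read beside these shares.

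The number of calls depended on single pools. It was 600 without vehicle pool 1, 636 without vehicle pool 2, 521 without vehicle pool 3 and 649 without amiodarone pool 2, against 1375 and 1097 without amiodarone pools 1 and 3. With the slide as a block it was 1430, and within the first slide, which holds 2 arrays of each treatment, it was 270; the second slide holds 1 of each and allows no test. Higher genes made up 50.6% of the calls, 64.2% after scaling to the array median and 30.6% without any scaling. Called members fell below 2 in 3 of the full count in 47, 48 and 49 of the 60 lists with calls without vehicle pools 1, 2 and 3, in 41 without amiodarone pool 2, and in 7 and 18 without amiodarone pools 1 and 3. Of 277 called genes among those chosen for description, 105 kept the call in all 6 fits that left out 1 pool, and 0 changed direction in any setting. Where a called gene named here lost its call in any of these fits, the highest adjusted p over them is given beside it as the pool-out adjusted p. The normexp background correction ended the call of some genes at dim probes and moved others by more than 1.5 times; the log2 difference it gave is then printed as the normexp value. It ended the call for Abcb9, Adam8, Ehhadh, Fgf2, Fgf9, Fstl1, Fzd9, Klf1, Krt76, Mycn and Ngfr. The call was likewise lost for Pik3r1, Rem1, Sesn3, Slc10a7, Slc13a2, Slc26a3, Sntb1, Sp8, Tbxa2r, Traf6 and Tubb3.

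**Figure D1:**
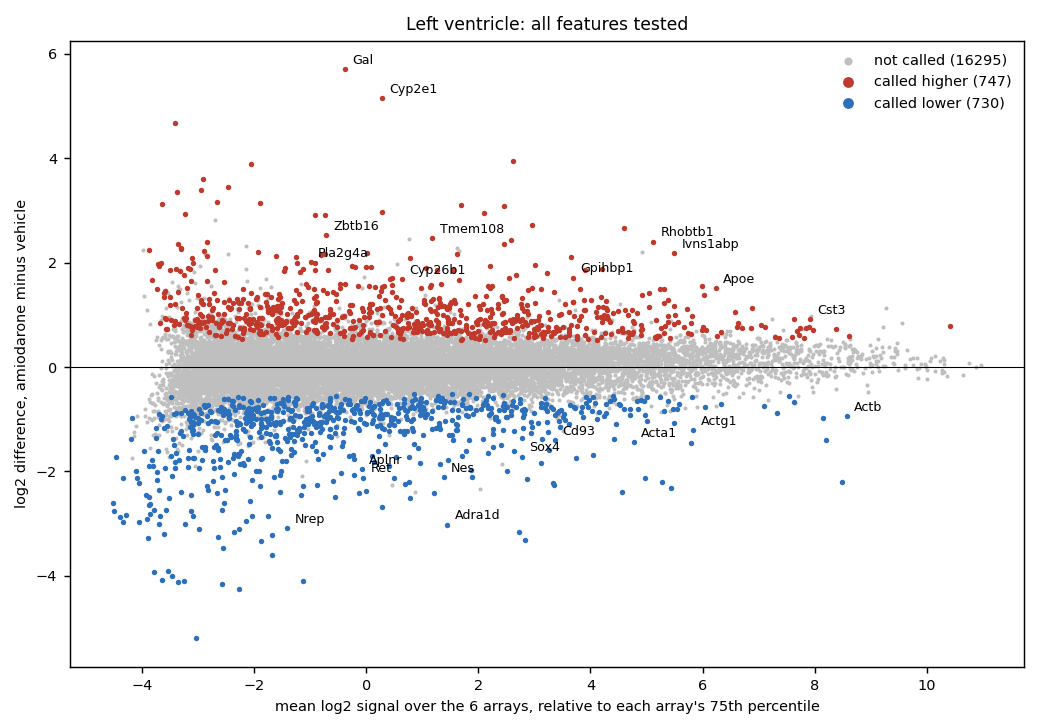
Each point is 1 of the 17772 features tested in the left ventricle; the horizontal axis is the mean log2 signal over the 6 arrays relative to each array's 75th percentile, and the vertical axis is the log2 difference, amiodarone minus vehicle. Red points are the 747 features called higher and blue points the 730 called lower, and genes described in the text are named.

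The tissue label was checked against markers of cell types. All 10 cardiomyocyte markers, among them Myh6, Actc1, Tnnt2 and Ryr2, were tested, limma called 0 (0 also had an unadjusted p below 0.05), and their median difference was -0.08. Of 7 fibroblast markers 4 fell (Col1a1, Col3a1, Lum, with a pool-out adjusted p of 0.101, and Dpt, with 0.0803) while Pdgfra (0.46), Dcn (0.39) and Tcf21 (-0.08) were not called. Of 6 red cell markers 4 fell, and their summed level was 6.04 to 6.56 in vehicle and 3.81 to 4.0 in amiodarone pools. Of 8 endothelial markers 1, Tie1, fell (by 1.05, pool-out adjusted p = 0.141, normexp -0.57), and their median was -0.22. Their summed level, in which Kdr was the brightest, was 7.19 to 7.33 and 7.19 to 7.45. The neutrophil genes S100a8 (by 2.12, pool-out adjusted p = 0.0518, normexp 0.93) and S100a9 (by 1.88, normexp 0.88) rose, and the call of S100a9 was lost in the authors' table, with no filter and with the replicate block, while Csf3r, Ngp, Cxcr2 and Mmp8 were well above background on all 3 arrays of neither group. The summed level of 4 atrial markers was 10.8 in amiodarone pool 3 and 9.69 to 9.92 in the other 5 pools. Myl4, the brightest on every array, was at 9.67 in that pool and 9.37 to 9.72 in the others. Dimmer markers stood further apart: Sln was at 6.05 against -1.27 to 0.71, and Myl7 at 9.37 against 3.83 to 7.54. In tissue RNA, fewer cells of a type and less RNA per cell cannot be told apart. The part of these shifts in the results on other genes was not tested.

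**Figure D2:**
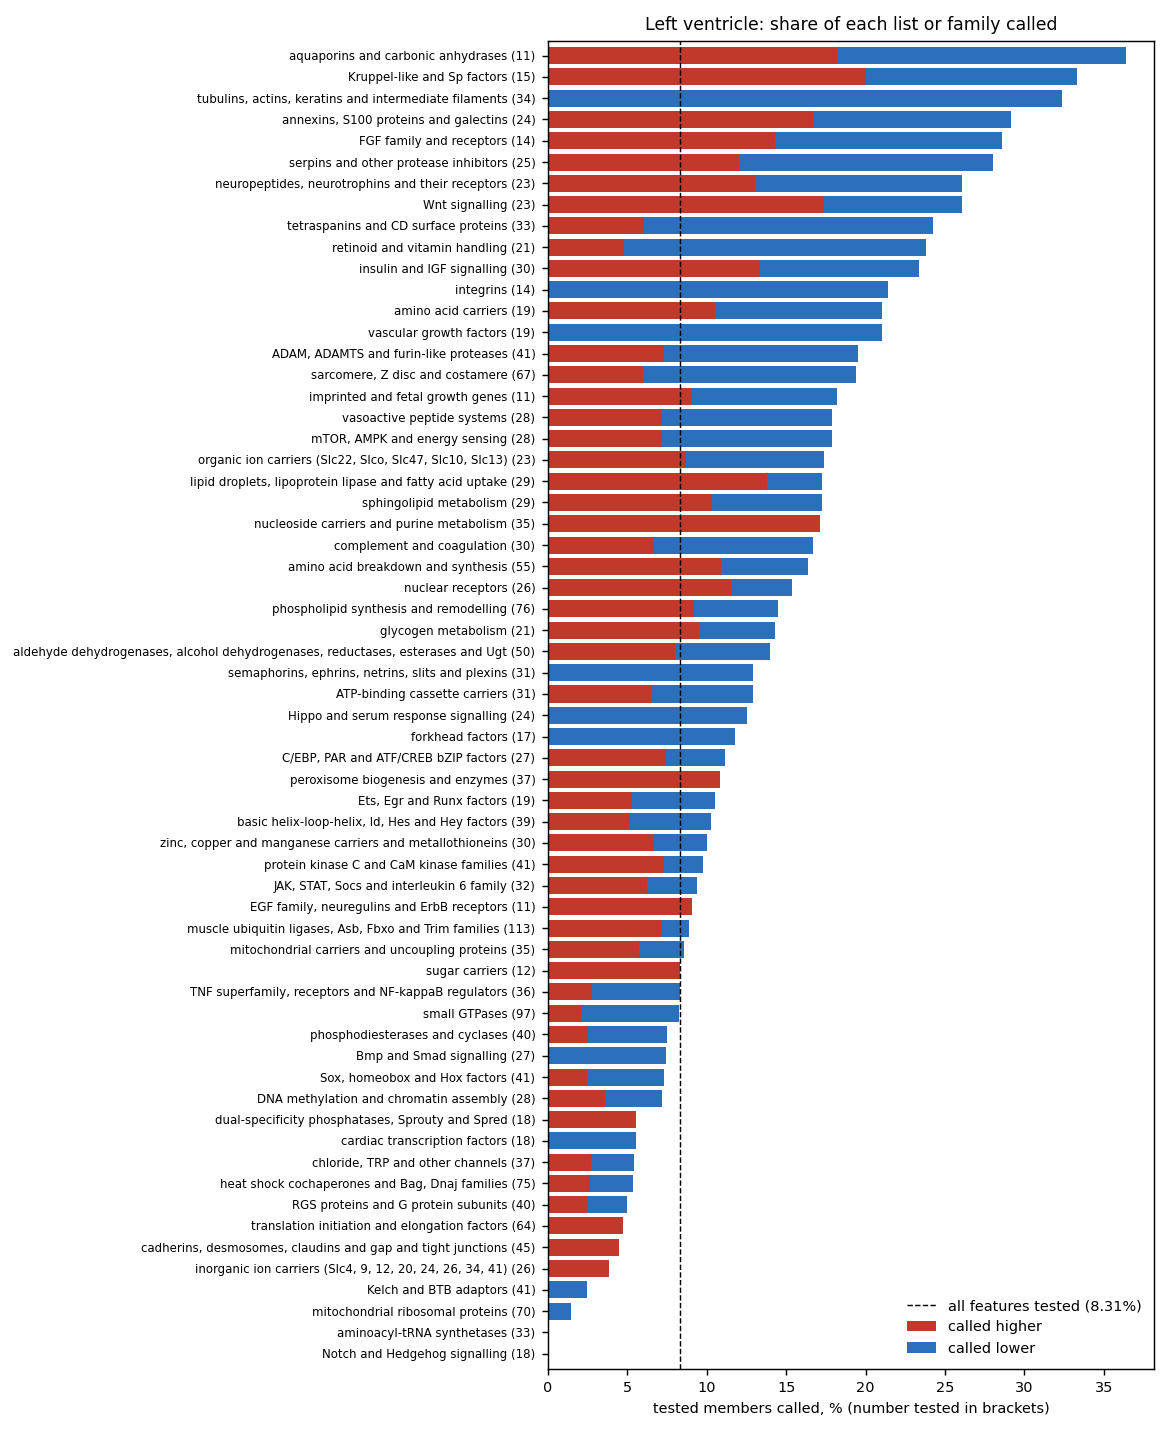
Bars give, for each of the 62 lists and families, the percent of tested members called higher (red) and lower (blue), with the number tested in brackets; the dashed line is the 8.31% of all features. Many lists had calls in a single direction, among them the tubulin, actin and filament family (lower) and the purine and peroxisome lists (higher).

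Large changes of genes well above background on all heart arrays reached adaptors of protein turnover, an adrenergic receptor and genes of matrix and growth. Rhobtb1, an atypical small GTPase that also serves as an adaptor of cullin ubiquitin ligases, was at 3.94, 3.99 and 3.82 in the vehicle pools and at 6.28, 6.43 and 6.25 in the amiodarone pools. It rose by 2.40 (SE 0.13, adjusted p = 0.000241), a 5.28-fold change at a probe on rn4 chr20:20089981-20090040. Ivns1abp, a Kelch protein that binds actin, was at 4.46, 4.37 and 4.39 against 6.63, 6.57 and 6.57. It rose by 2.18 (SE 0.12, adjusted p = 0.000241), and a second probe of the gene gave 2.04. Both genes were bright and nearly constant within each group.

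Tmem108, a membrane protein studied in neurons, rose by 2.46 (SE 0.20), the flavin monooxygenase Fmo2 by 2.36 (SE 0.14) and the small adaptor Bex1 by 2.11 (SE 0.22).

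Adra1d, the alpha-1D adrenergic receptor, which couples noradrenaline to contraction of arteries, was at 2.98, 2.93 and 2.97 in vehicle and at 0.21, -0.34 and -0.06 in amiodarone pools. It fell by 3.02 (SE 0.17, adjusted p = 0.000241; probe on rn4 chr3:119280059-119280118). Nrep, a neuronal and fibroblast regeneration protein, fell by 3.09 (SE 0.24, normexp -1.49), and its second probe gave -2.75. Loxl2, which crosslinks collagen, fell by 2.51 (SE 0.29), the transglutaminase Tgm1 fell by 2.39 (SE 0.30, normexp -0.96) and the collagen chain Col5a3 fell by 2.38 (SE 0.14, normexp -1.46). Plk1, a kinase of mitosis, fell by 2.29 (SE 0.15, normexp -1.10), and the lymphocyte surface peptide Cd52 fell by 2.41 (SE 0.22, normexp -1.55). Rhd, the Rh blood group protein of red cells, fell by 2.46 (SE 0.22, normexp -1.21) together with the red cell markers given above.

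Among transcription factors, Klf10, Klf15, Cebpd, Id1 and Id4 rose, and Sox4, the paired-type homeobox gene Prrx2 and the proliferation factors Foxm1 and Mxd3 fell. Of 15 tested Krüppel-like and Sp factors 3 rose and 2 fell, with a median of 0.12. Klf10, an early gene of transforming growth factor beta signalling, was at 1.85, 1.94 and 1.81 in vehicle and at 3.22, 3.00 and 3.19 in amiodarone pools, and rose by 1.27 (SE 0.13, adjusted p = 0.0024); a second probe gave 1.63. Klf15, a regulator of amino acid and lipid use in the heart and a glucocorticoid target, was at 3.76, 3.74 and 3.62 against 5.02, 4.86 and 4.64, and rose by 1.13 (SE 0.15, adjusted p = 0.0056). The amiodarone levels of both lay above all vehicle levels. Klf9, a target of glucocorticoids and thyroid hormone, rose by 0.60 (SE 0.13, pool-out adjusted p = 0.137), but its other probe gave only 0.21. Klf1, the erythroid factor, fell by 1.21 (SE 0.18, normexp -0.15), seen above background on 2 of 3 amiodarone arrays, and Sp8 was at least 2.14-fold lower, with 0 of 3 (normexp -0.25).

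**Figure D3:**
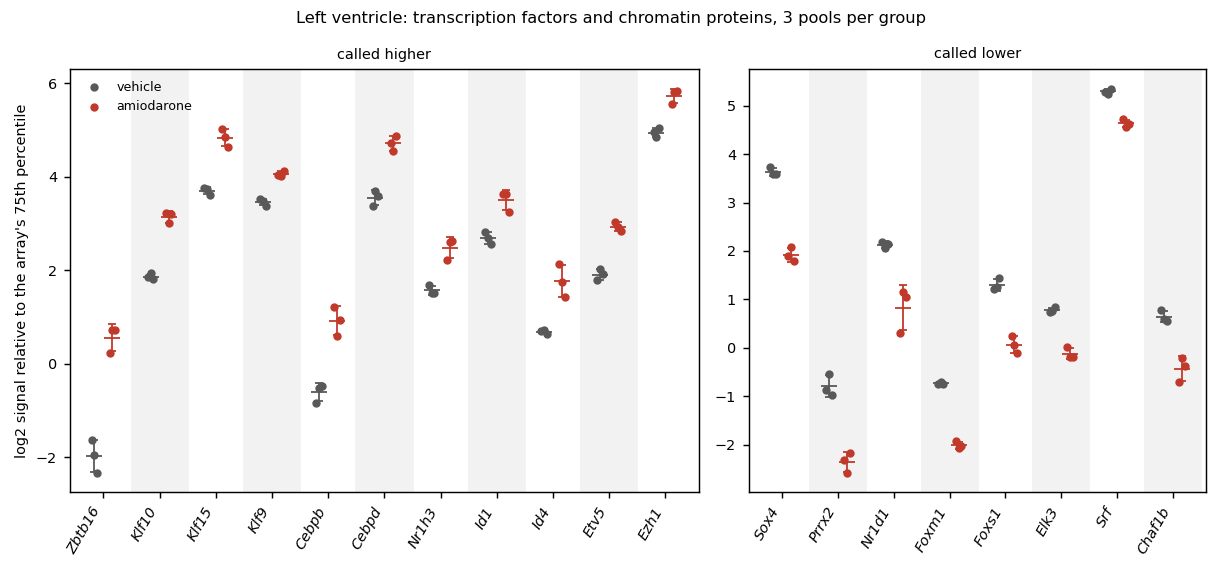
Points are single pools (grey vehicle, red amiodarone), horizontal marks the group means and vertical bars the SD (n = 3), on the axis of log2 signal relative to the array's 75th percentile. In each gene the 3 amiodarone points lie wholly above or wholly below the 3 vehicle points.

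In the C/EBP, PAR and ATF/CREB group 2 of 27 rose and 1 fell (median -0.03), or 11.1% beside 8.31% over all features. Cebpd, a C/EBP factor of acute phase and glucocorticoid responses, was at 3.38, 3.70 and 3.59 in vehicle and at 4.72, 4.55 and 4.87 in amiodarone pools, a rise of 1.16 (SE 0.15, adjusted p = 0.0059). Of 39 basic helix-loop-helix and Id genes 2 rose and 2 fell, with a median of -0.24. The Id proteins bind such factors and keep them off DNA. Id4 rose by 1.08 (SE 0.19, pool-out adjusted p = 0.0721) and Id1 by 0.81 (SE 0.16, pool-out adjusted p = 0.107). Mxd3, of the MYC/MAX network, fell by 2.35 (SE 0.19, normexp -0.54), seen above background on 1 of 3 amiodarone arrays, and Mycn was at least 3.84-fold lower, with 0 of 3 (pool-out adjusted p = 0.0908, normexp -0.49).

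Sox4, a factor of progenitor cells and of the developing outflow tract, was at 3.73, 3.59 and 3.60 in vehicle and at 1.90, 2.08 and 1.79 in amiodarone pools. It fell by 1.72 (SE 0.14, adjusted p = 0.000916; probe on rn4 chr17:42174685-42174744), and its other probes gave -1.79 and -1.12. It was 1 of 2 that fell among 41 Sox and homeobox genes, where 1 rose, or 7.32% called beside 8.31% over all features. The other fall was of Prrx2, a homeobox gene of mesenchyme, by 1.56 (SE 0.18, normexp -0.60). Forkhead factors had 2 falls among 17 and no rise, or 11.8% called. Foxm1, which drives the transcription of mitotic genes, was at -0.75, -0.71 and -0.74 in vehicle and at -1.93, -2.07 and -2.03 in amiodarone pools, and fell by 1.27 (SE 0.13, adjusted p = 0.00182, normexp -0.57). Foxs1, a forkhead factor of pericytes and sensory neurons, fell by 1.23 (SE 0.15).

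Of 26 nuclear receptors 3 rose and 1 fell, with a median of 0.03. Nr1h3, the liver X receptor alpha that senses oxysterols, rose by 0.91 (SE 0.16, pool-out adjusted p = 0.0752), and Nr0b2, a repressor partner of other receptors, by 0.85 (SE 0.18, pool-out adjusted p = 0.105). The clock repressor Nr1d1 was at 2.19, 2.06 and 2.14 in vehicle and at 0.30, 1.14 and 1.05 in amiodarone pools, and fell by 1.30 (SE 0.23, pool-out adjusted p = 0.0676). Etv5 rose by 1.02 (SE 0.14) at its brightest probe and by 0.26 at the other, and Elk3, an Ets factor that partners SRF, fell by 0.90 (SE 0.13, pool-out adjusted p = 0.052). Among 28 chromatin genes Ezh1, a Polycomb methyltransferase of non-dividing cells, rose by 0.79 (SE 0.14, pool-out adjusted p = 0.0778), and Chaf1b, which loads histones onto newly copied DNA, fell by 1.07 (SE 0.17, pool-out adjusted p = 0.0518). Of 18 cardiac transcription factors 1 was called: Srf, the serum response factor, which fell. Gata4, a factor of heart muscle identity, was at -0.40 (SE 0.25, adjusted p = 0.36).

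The cytoskeletal actins Actb and Actg1, nestin and vimentin fell after amiodarone. Of 34 tested tubulins, actins, keratins and intermediate filament genes 11 fell and 0 rose, against 4.11% lower over all features, and the median was -0.24; it stayed between -0.37 and -0.14 under the scalings tried, with 8 to 11 called. Actb, the common cytoskeletal actin, was at 9.18, 8.94 and 9.04 in vehicle and at 8.16, 8.14 and 8.02 in amiodarone pools. It fell by 0.94 (SE 0.13, adjusted p = 0.00775). Actg1, the other cytoskeletal actin, was at 6.38, 6.47 and 6.46 against 5.29, 5.16 and 5.24, and fell by 1.21 (SE 0.13, adjusted p = 0.00235). The vehicle and amiodarone levels of both genes were separated by far more than their spread, although actins are close in sequence and their probes may share signal.

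The muscle actins followed unequally. Acta1, the skeletal form that the fetal and the loaded heart express, was at 5.31, 5.62 and 5.57 in vehicle and at 3.81, 4.14 and 4.21 in amiodarone pools, a fall of 1.45 (SE 0.17, adjusted p = 0.00341). Actg2, the enteric smooth muscle form, fell by 1.18 (SE 0.13). Actc1, the cardiac form, which is counted with the sarcomere list and not with the family above, was at -0.22 (adjusted p = 0.438). Des, the desmin filament of muscle, counted with the sarcomere list, was also not called, at 0.18 (SE 0.13, adjusted p = 0.443), with the 3 amiodarone pools above the vehicle pools.

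Among filaments, Nes (nestin, of progenitor, nerve-associated and growing vessel cells) was at 2.26, 2.49 and 2.57 in vehicle and at 0.29, 0.36 and 0.33 in amiodarone pools, a fall of 2.11 (SE 0.14, adjusted p = 0.000409). Lmnb2, a lamin of the nuclear envelope, fell by 1.27 (SE 0.15, normexp -0.78). Vim, the vimentin of fibroblasts and endothelium, fell by 0.94 (SE 0.19, pool-out adjusted p = 0.0891), the actin monomer binder Tmsb10 fell by 0.82 (SE 0.19, pool-out adjusted p = 0.126) and the tubulin Tubb3 fell by 0.78 (SE 0.16, pool-out adjusted p = 0.106, normexp -0.21). Krt24 was at least 7.0-fold lower (normexp -0.87), seen above background on 0 of 3 amiodarone arrays, and Krt76 fell by 1.60 (SE 0.17, normexp -0.29), with 1 of 3. The 4 fallen fibroblast markers moved with these genes, and their part in the falls was not tested.

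Srf is the factor that binds the CArG box, a motif in the promoters of many actin and muscle genes. It was at 5.28, 5.24 and 5.35 in vehicle and at 4.72, 4.55 and 4.63 in amiodarone pools, and fell by 0.66 (SE 0.13, adjusted p = 0.0237, pool-out adjusted p = 0.11); its other probes gave -0.53 and -0.21, and the call was lost with array median scaling. Windows around the CArG box in RefSeq promoters of genome build GRCr8, 250 bases before to 50 after the start, are shown for 3 genes that fell, with the motif in capitals. The strand is the minus strand in each, and all are written 5′ to 3′.
Acta1 (chr19:68784254-68784313): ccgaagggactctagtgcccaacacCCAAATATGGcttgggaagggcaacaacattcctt
Actg1 (chr10:106121007-106121066): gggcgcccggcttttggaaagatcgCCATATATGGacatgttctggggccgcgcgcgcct
Fhl2 (chr9:52923350-52923409): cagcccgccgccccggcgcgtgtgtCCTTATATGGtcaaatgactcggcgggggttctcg
The motif ends 85 bases before the start in Acta1, 81 in Actg1 and 49 in Fhl2. It was found, on either strand, in 548 of 33469 promoters (1.64%). By gene it was in 11 of 369 called lower (2.98%), 3 of 339 called higher (0.885%) and 109 of 7922 tested (1.38%). Among the filament family it was in 2 of the 10 fallen members with a promoter in the table and in 2 of 30 tested. The sarcomere list holds Fhl2 and shares Acta1 with the filament family, so Acta1 is counted in both. There the motif was in 8 of 53 tested members, 2 of 7 fallen (Acta1 and Fhl2) and 0 of 3 risen. Actc1, Dmd, Fhl1, Ldb3, Myl3 and Nebl hold it and were not called. A match describes letters, not binding.

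**Figure D4:**
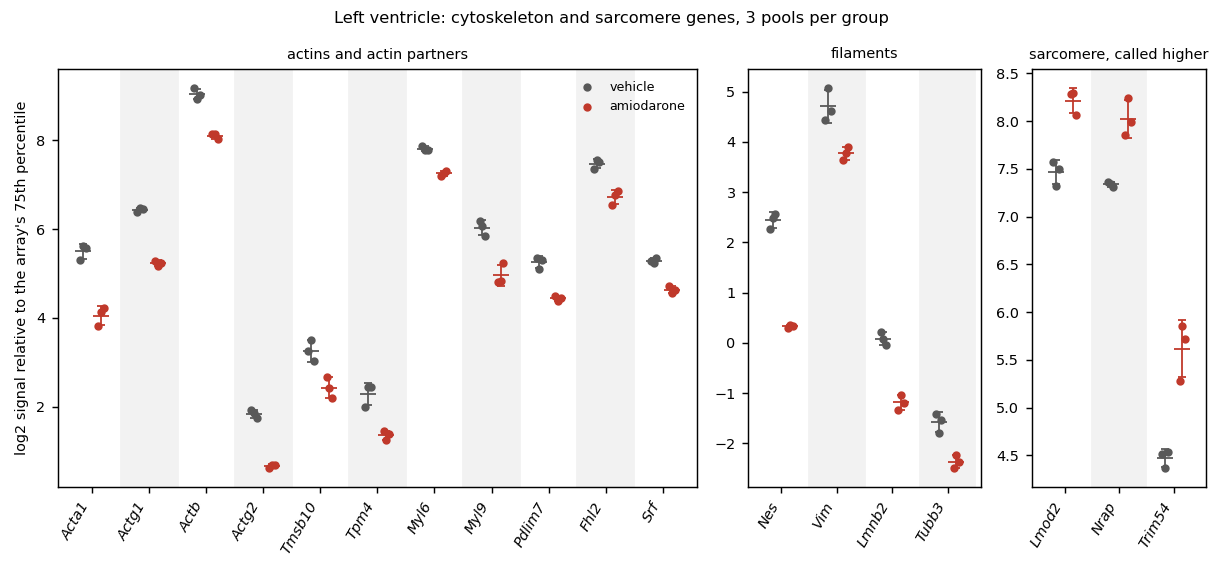
Points are single pools (grey vehicle, red amiodarone), horizontal marks the means and vertical bars the SD (n = 3), as log2 signal relative to the array's 75th percentile; each of the 3 panels has its own scale. The actins, their partners and the filaments lie lower in all amiodarone pools, and Lmod2, Nrap and Trim54 higher.

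In the sarcomere, Z disc and costamere list 9 of 67 fell and 4 rose, with a median of -0.05 (between -0.18 and 0.04 under the scalings tried). Acta1 is among the fallen both here and in the filament family. The fallen members included the non-muscle and smooth muscle light chains Myl6, by 0.56 (pool-out adjusted p = 0.138), and Myl9, by 1.07 (pool-out adjusted p = 0.0543), with the cytoskeletal tropomyosin Tpm4, by 0.93 (pool-out adjusted p = 0.0805). Pdlim7, a Z disc adaptor, fell by 0.81 (SE 0.14, pool-out adjusted p = 0.0722), and Fhl2, an SRF target and cofactor abundant in heart muscle, fell by 0.75 (SE 0.14, pool-out adjusted p = 0.0977). The sarcomere member Mybpc2 was also called lower, at -1.45 (pool-out adjusted p = 0.0888, normexp -0.57). So was the costamere member Sntb1, at -1.90 (pool-out adjusted p = 0.105, normexp -0.20). The risen members were proteins of the sarcomere, so sarcomere genes were called in both directions. Lmod2, which sets the length of thin filaments, was at 7.58, 7.32 and 7.50 in vehicle and at 8.28, 8.29 and 8.07 in amiodarone pools, and rose by 0.75 (SE 0.14, pool-out adjusted p = 0.0893). Nrap, a scaffold of myofibril assembly, rose by 0.69 (SE 0.15, pool-out adjusted p = 0.127), and the slow troponin Tnni1 by 0.89 (SE 0.20, pool-out adjusted p = 0.134). Trim54, a ubiquitin ligase of the sarcomere also known as MuRF3, was at 4.51, 4.37 and 4.54 against 5.28, 5.85 and 5.72, and rose by 1.15 (SE 0.18, pool-out adjusted p = 0.0512).

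Small GTPases steer actin assembly and vesicle traffic. Of 97 small GTPases and relatives 6 fell and 2 rose, or 8.25% of them, near the share over all features. Cdc42ep5, an effector of Cdc42, fell by 1.07 (SE 0.13), and Rhoc fell by 0.99 (SE 0.20, pool-out adjusted p = 0.106). The Rad family GTPase Rem1, which restrains L-type calcium channels, was at -0.69, -0.56 and -0.65 in vehicle and at -1.54, -1.46 and -1.44 in amiodarone pools, and fell by 0.85 (SE 0.13, adjusted p = 0.00918, normexp -0.40).

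Growth factor binding proteins and brakes on growth changed in both directions. The insulin-like growth factors act through a receptor tyrosine kinase, and their binding proteins hold them in the extracellular space. Of 30 genes of insulin and IGF signalling 4 rose and 3 fell, with a median of -0.04. Igfbp3 was at 4.97, 4.61 and 4.68 in vehicle and at 6.19, 6.00 and 5.90 in amiodarone pools, and rose by 1.28 (SE 0.16, adjusted p = 0.00434). Igfbp4 was at 3.00, 2.83 and 2.89 against 1.75, 1.5 and 1.60, and fell by 1.29 (SE 0.14, adjusted p = 0.0025). Igfbp5 fell by 1.71 (SE 0.28, pool-out adjusted p = 0.0533). So 1 binding protein rose and 2 fell, while the ligands Igf1, at -0.27 (SE 0.13), and Igf2, at -0.67 (SE 0.25), were not called (adjusted p = 0.263 and 0.155).

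Inside the cell, Irs2, an adaptor of the insulin receptor, rose by 1.14 (SE 0.17, pool-out adjusted p = 0.0509). Pik3r1, the regulatory subunit of phosphoinositide 3-kinase, rose by 1.29 (SE 0.15, normexp 0.34), seen above background on 2 of 3 vehicle arrays. Foxo1, at -0.03, was not called.

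Cdkn1c, the imprinted cell cycle inhibitor p57, was at 0.46, 0.63 and 0.05 in vehicle and at 1.95, 1.76 and 2.01 in amiodarone pools. It rose by 1.53 (SE 0.18, adjusted p = 0.00402), and its 3 other probes gave 1.16 to 1.51. Ndn, an imprinted growth suppressor of neurons and mesenchyme, fell by 1.11 (SE 0.15). These were the only called members among 11 tested imprinted and fetal growth genes.

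In energy sensing, 2 of 28 genes rose and 3 fell. Sesn1, a sestrin that restrains mTOR complex 1, was at 1.36, 1.96 and 1.88 in vehicle and at 3.05, 3.07 and 3.17 in amiodarone pools, and rose by 1.36 (SE 0.19, adjusted p = 0.00633). Its relative Sesn3 fell by 1.09 (SE 0.18, pool-out adjusted p = 0.0521, normexp -0.34). Eif4ebp1, which holds back cap-dependent translation until mTOR phosphorylates it, rose by 1.18 (SE 0.17, adjusted p = 0.00868). Perm1, a muscle regulator of mitochondrial genes, fell by 0.99 (SE 0.22, pool-out adjusted p = 0.135, normexp -0.63).

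Of 113 genes of the muscle ubiquitin ligase, Asb, Fbxo and Trim families 8 rose and 2 fell, or 8.85%, near the share over all features. Fbxo31 rose by 1.11 (SE 0.23, pool-out adjusted p = 0.109), Cblb, a ligase that dampens receptor signalling, by 0.83 (SE 0.15, pool-out adjusted p = 0.0773), and Trim47 fell by 1.08 (SE 0.15). The atrophy ligases Trim63, at 0.51 (SE 0.18, adjusted p = 0.124), and Fbxo32, at 0.22 (SE 0.21, adjusted p = 0.564), were not called. Of 64 translation factors 3 rose and 0 fell, or 4.69%, below the 8.31% over all features. Eif4b was among them, with a rise of 0.99 (SE 0.20, pool-out adjusted p = 0.0966). Of 33 aminoacyl-tRNA synthetases limma called 0 (5 had an unadjusted p below 0.05); those with the smallest p were Nars2, at -0.61 (adjusted p = 0.0793), and Iars1, at 0.42 (adjusted p = 0.146). Of 70 mitochondrial ribosomal proteins 1 was called.

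The vascular growth factor list was called only in the lower direction. Fgf2, counted with the FGF family, was called higher (at 0.85, pool-out adjusted p = 0.119, normexp 0.29). Of 19 vascular growth factor genes 4 fell and 0 rose, beside 4.11% lower over all features. Their median was -0.15 (between -0.28 and -0.06 under the scalings tried). Aplnr, the apelin receptor of endothelium and heart muscle, was at 0.65, 0.92 and 1.15 in vehicle and at -0.88, -1.19 and -1.09 in amiodarone pools, and fell by 1.96 (SE 0.17, adjusted p = 0.00117; probe on rn4 chr3:68368367-68368426). Vegfc, the growth factor of lymphatic vessels, fell by 0.84 (SE 0.17, pool-out adjusted p = 0.0955), and Angptl2 fell by 0.92 (SE 0.14, pool-out adjusted p = 0.0528). Outside that list, Cd93, a surface lectin of endothelium, was at 4.07, 4.0 and 4.16 against 2.71, 2.68 and 2.64. It fell by 1.40 (SE 0.13, adjusted p = 0.00121). Plxnd1, the semaphorin receptor of vessels, counted with the semaphorins, fell by 1.04 (SE 0.19, pool-out adjusted p = 0.0762). Other vessel genes outside the list rose: Gpihbp1 of capillaries by 1.71 and Aqp1 of endothelium and red cells by 0.64 (pool-out adjusted p = 0.12). Of the 8 endothelial markers given above, 7 were not called beside these falls. The median of the 8 was -0.22, and only Kdr was above 0, at 0.23. Their part in these falls was not tested.

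Of 23 Wnt genes 4 rose and 2 fell, with a median of -0.04. Wnt2b, a Wnt ligand, was at least 3.49-fold higher (normexp 0.51), since 0 of 3 vehicle arrays measured it. The receptor Fzd9 rose by 1.39 (SE 0.17, normexp 0.38), seen above background on 2 of 3 vehicle arrays, whereas the receptor Fzd2 fell by 1.29 (SE 0.23, pool-out adjusted p = 0.0727, normexp -0.56). Dkk3, a secreted glycoprotein related to Wnt inhibitors, was at 3.06, 2.79 and 3.04 in vehicle and at 3.99, 3.84 and 4.11 in amiodarone pools, and rose by 1.02 (SE 0.15, adjusted p = 0.00832).

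Of 27 Bmp and Smad genes 2 fell and 0 rose, or 7.41%, near the 8.31% over all features. Inhba, the subunit of activin A, was at -0.84, -0.43 and -0.96 in vehicle and at -2.23, -2.38 and -2.43 in amiodarone pools, and fell by 1.60 (SE 0.18, adjusted p = 0.00271, normexp -0.65). Fstl1 fell by 1.05 (SE 0.21, pool-out adjusted p = 0.0966, normexp -0.39). In the FGF family 2 of 14 rose and 2 fell. Fgfbp3, which releases FGFs from matrix, rose by 1.12 (SE 0.18, pool-out adjusted p = 0.051), and Fgf9 was at least 1.88-fold lower (pool-out adjusted p = 0.156, normexp -0.16). Errfi1, a feedback inhibitor of EGF receptors, rose by 1.07 (SE 0.19, pool-out adjusted p = 0.0642). Of 18 Notch and Hedgehog genes limma called 0 (2 had an unadjusted p below 0.05), and Hes1 was at -0.32 (SE 0.13, adjusted p = 0.194).

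Receptors and peptides that set vessel tone changed beside Adra1d. Of 28 vasoactive genes 2 rose and 3 fell, with a median of -0.13. Edn2, the precursor of endothelin 2, was at -0.11, -0.77 and -0.63 in vehicle and at -2.22, -2.66 and -2.86 in amiodarone pools, and fell by 2.08 (SE 0.23, adjusted p = 0.00311, normexp -0.85). Agtr1a, the type 1 angiotensin receptor, was at -1.81, -1.60 and -1.75 against -0.78, -0.72 and -0.72, and rose by 0.98 (SE 0.13, adjusted p = 0.00579, normexp 0.51). Tbxa2r, the thromboxane receptor, fell by 1.76 (SE 0.33, pool-out adjusted p = 0.0846, normexp -0.40), seen above background on 1 of 3 amiodarone arrays. Adora1, the adenosine receptor that slows the heart, rose by 0.76 (SE 0.18, pool-out adjusted p = 0.149). In the nitric oxide and cyclic nucleotide group, Nos3, the endothelial nitric oxide synthase, fell by 0.77 (SE 0.16, pool-out adjusted p = 0.1), and Gucy1a1, a subunit of the nitric oxide receptor, rose by 0.78 (SE 0.16, pool-out adjusted p = 0.105). In that group 1 of 40 rose and 2 fell, or 7.50%, near the share over all features.

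Of 23 neuropeptide and neurotrophin genes 3 rose and 3 fell, with a median of -0.19. Besides galanin, Npy, the peptide of sympathetic nerves, was at 2.83, 2.48 and 2.53 in vehicle and at 3.26, 3.45 and 3.84 in amiodarone pools, and rose by 0.90 (SE 0.19, pool-out adjusted p = 0.12). All 3 falls were of receptors. Ret, the receptor kinase for GDNF family ligands, was at 0.98, 1.18 and 0.86 against -1.14, -0.98 and -1.23, and fell by 2.12 (SE 0.15, adjusted p = 0.000523). Ntrk3, the receptor of neurotrophin 3, was at least 4.02-fold lower (normexp -0.55), seen above background on 0 of 3 amiodarone arrays, and Ngfr fell by 0.85 (SE 0.20, pool-out adjusted p = 0.157, normexp -0.12). Of 6 nerve and Schwann cell markers tested, 1 rose, 1 (Tubb3) fell and the other 4 were not called, and their part in these changes was not tested.

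Cytokine receptor and kinase families were called at shares near the 8.31% over all features. Il6r, the interleukin 6 receptor, was at -0.35, -0.15 and -0.27 in vehicle and at 1.41, 1.36 and 0.75 in amiodarone pools, and rose by 1.43 (SE 0.20, adjusted p = 0.00738). It was 1 of 2 that rose among 32 genes of JAK, STAT and Socs signalling, where 1 fell. Nfkbia, the inhibitor of NF-kappaB, rose by 0.99 (SE 0.18, pool-out adjusted p = 0.0822), and the adaptors Traf3 and Traf6 each fell by 0.66 (pool-out adjusted p = 0.13 and 0.132), with a normexp value of -0.24 for Traf6. Among 41 kinases of the protein kinase C and CaM kinase families, Pim3 rose by 1.03 (SE 0.19, pool-out adjusted p = 0.0798), Dapk1 rose by 1.03 (SE 0.16, pool-out adjusted p = 0.0588, normexp 0.68), and Prkcd fell by 0.65 (SE 0.13, pool-out adjusted p = 0.106). Dusp15 was the only one of 18 dual-specificity phosphatase and Sprouty genes called, with a rise of 1.33 (SE 0.20, normexp 0.78).

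Membrane carriers changed in both directions. Of 19 amino acid carriers 2 rose and 2 fell. Slc7a8, the LAT2 exchanger of neutral amino acids, was at -1.56, -1.58 and -1.61 in vehicle and at -0.10, -0.15 and -0.39 in amiodarone pools, and rose by 1.37 (SE 0.14, adjusted p = 0.00201, normexp 0.75). Its heavy chain partner Slc3a2 was at 2.35, 2.65 and 2.49 against 3.02, 3.54 and 3.58, and rose by 0.89 (SE 0.19, adjusted p = 0.0324, pool-out adjusted p = 0.112). Both subunits of this exchanger were thus higher, whereas Slc1a5, the glutamine carrier ASCT2, fell by 1.12 (SE 0.18, pool-out adjusted p = 0.0578).

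Among mitochondrial carriers 2 of 35 rose and 1 fell, or 8.57%, near the share over all features. Ucp2, an uncoupling protein found also in macrophages, was at 2.31, 2.14 and 2.63 in vehicle and at 0.51, 0.04 and 1.16 in amiodarone pools, and fell by 1.79 (SE 0.29, pool-out adjusted p = 0.052). Slc25a14, of the same family, rose by 0.84 (SE 0.15, pool-out adjusted p = 0.0751). The anion exchanger Slc26a3 was at least 3.45-fold higher (normexp 0.41), since 0 of 3 vehicle arrays measured it, and was the only call among 26 inorganic ion carriers. Slc10a7 was at least 1.77-fold lower (normexp -0.11), and Slc13a2, a dicarboxylate carrier, fell by 1.07 (SE 0.17, pool-out adjusted p = 0.0543, normexp -0.42). Aqp1, the water channel of endothelium and red cells, rose by 0.64 (SE 0.14, pool-out adjusted p = 0.12), and Car2, a carbonic anhydrase also abundant in red cells, fell by 0.93 (SE 0.16, pool-out adjusted p = 0.0672). The lysosomal half-transporter Abcb9 fell by 1.24 (SE 0.20, pool-out adjusted p = 0.0598, normexp -0.44). Among intracellular chloride channel proteins Clic1 fell by 0.70 (SE 0.13, pool-out adjusted p = 0.0801) and Clic5 rose by 0.74 (SE 0.15, pool-out adjusted p = 0.0934).

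Purine genes were called in the higher direction only. Of 35 tested nucleoside carriers and purine genes 6 rose and 0 fell, against 4.20% higher over all features, although the median of the list was -0.01 and the calls numbered 2 to 7 under the scalings tried. Ampd1, the muscle AMP deaminase, was at -2.11, -2.01 and -1.29 in vehicle and at -0.50, -0.35 and 0.01 in amiodarone pools, and rose by 1.52 (SE 0.25, adjusted p = 0.0128, normexp 0.75). Hprt1, which salvages hypoxanthine and guanine, was at 6.52, 6.61 and 6.76 against 7.50, 7.46 and 7.37, and rose by 0.81 (SE 0.14, adjusted p = 0.0134). Xdh, which turns hypoxanthine into uric acid, was at 0.57, 0.94 and 0.40 against 2.26, 2.08 and 1.51, and rose by 1.31 (SE 0.23, adjusted p = 0.0173). Deamination, salvage and breakdown were each represented. The concentrating nucleoside carrier Slc28a2 rose by 0.86 (SE 0.15), with 0.33 at its other probe, the uridine phosphorylase Upp1 by 0.76 (SE 0.16) and the guanine deaminase Gda by 0.66 (SE 0.16). Each of the 6 lost its call in some fit without 1 pool, with a highest adjusted p of 0.0599 for Ampd1, 0.0604 for Hprt1, 0.0724 for Xdh, 0.0831 for Slc28a2, 0.0946 for Upp1 and 0.141 for Gda. Without vehicle pool 1 the list had 0 calls, without vehicle pool 2 it had 1, without vehicle pool 3 it had 2 and without amiodarone pool 2 it had 1.

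Phospholipases that act on membrane lipids were among the clearest rises in lipid metabolism. Of 76 genes of phospholipid synthesis and remodelling 7 rose and 4 fell, with a median of 0.05. Pla2g4a, the cytosolic phospholipase A2 that frees arachidonic acid, was at -2.11, -1.91 and -1.95 in vehicle and at 0.38, -0.09 and -0.25 in amiodarone pools. It rose by 2.0 (SE 0.19, adjusted p = 0.00141; probe on rn4 chr13:64146152-64146211, normexp 1.06), a 4.01-fold change. Pla2g2a, a secreted phospholipase A2 of the acute phase, was at 2.14, 2.58 and 1.91 against 3.96, 3.52 and 3.69, and rose by 1.51 (SE 0.21, adjusted p = 0.00693). Pla2g7, the platelet-activating factor acetylhydrolase that macrophages secrete, rose by 1.51 (SE 0.15, adjusted p = 0.002). Pla2g5, another secreted member, went the other way and fell by 0.69 (SE 0.15, pool-out adjusted p = 0.143).

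Gpcpd1, which splits glycerophosphocholine after both fatty acids have been removed, was at 1.89, 1.64 and 1.83 in vehicle and at 2.97, 2.95 and 2.85 in amiodarone pools, and rose by 1.14 (SE 0.14, adjusted p = 0.00398). Gpam, which starts glycerolipid synthesis, rose by 0.77 (SE 0.14, pool-out adjusted p = 0.074, normexp 0.51), and the acyltransferase Agpat3 fell by 0.69 (SE 0.13, pool-out adjusted p = 0.0961). Of 29 sphingolipid genes 3 rose and 2 fell. Acer2, a ceramidase of the Golgi, rose by 1.40 (SE 0.19, adjusted p = 0.00633, normexp 0.72), and Smpdl3a, a phosphodiesterase related to acid sphingomyelinase, by 1.05 (SE 0.14, adjusted p = 0.0067). Sgms1, which makes sphingomyelin, was at -0.62, -0.40 and -0.37 against 1.84, 0.81 and 0.62, and rose by 1.56 (SE 0.31, pool-out adjusted p = 0.0865). S1pr2, a receptor of sphingosine 1-phosphate, fell by 1.20 (SE 0.17, adjusted p = 0.0067).

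**Figure D5:**
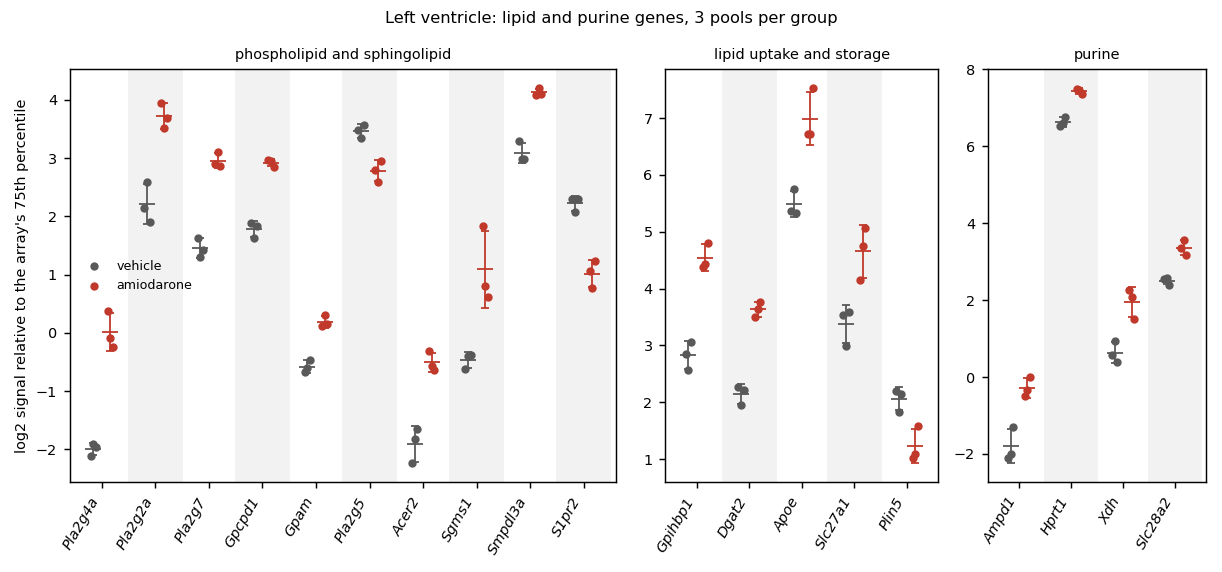
Points are single pools (grey vehicle, red amiodarone), horizontal marks the means and vertical bars the SD (n = 3), as log2 signal relative to the array's 75th percentile; each of the 3 panels has its own scale. Pla2g5, S1pr2 and Plin5 lie lower in all amiodarone pools and the other genes higher.

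Of 29 fatty acid uptake and storage genes 4 rose and 1 fell, with a median of 0.23 (between 0.09 and 0.32 under the scalings tried). In 11 of the 29 all amiodarone pools lay above all vehicle pools, beside 18.8% over all features. In 5 they all lay below, beside 13.7%. Gpihbp1, which carries lipoprotein lipase to the capillary lumen, was at 2.85, 2.58 and 3.07 in vehicle and at 4.38, 4.44 and 4.81 in amiodarone pools, and rose by 1.71 (SE 0.19, adjusted p = 0.00271). Dgat2, which completes triglycerides, was at 2.27, 1.95 and 2.22 against 3.50, 3.63 and 3.76, and rose by 1.48 (SE 0.15, adjusted p = 0.00216). Apoe, an apolipoprotein that macrophages make, rose by 1.51 (SE 0.25, pool-out adjusted p = 0.0597), and Slc27a1, a fatty acid carrier, by 1.28 (SE 0.27, pool-out adjusted p = 0.106). Plin5, the lipid droplet coat protein of heart muscle, fell by 0.83 (SE 0.20, pool-out adjusted p = 0.152). Of 6 macrophage markers 1 rose, with a median of 0.51, and their part in the rises of Apoe and Pla2g7 was not tested.

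Of 37 peroxisome genes 4 rose and 0 fell, or 10.8% beside 8.31% over all features. Their median was 0.24 (between 0.11 and 0.33 under the scalings tried, with 0 calls when no scaling was applied). Ehhadh, the peroxisomal bifunctional enzyme, rose by 1.17 (SE 0.18, pool-out adjusted p = 0.051, normexp 0.46), Ech1 by 0.91 (SE 0.16, pool-out adjusted p = 0.0722) and the thiolase Acaa1a by 0.76 (SE 0.18, pool-out adjusted p = 0.139). These 3 are enzymes of beta-oxidation. The list had 2, 0 and 1 calls without vehicle pools 1, 2 and 3, and 2 without amiodarone pool 2.

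In amino acid metabolism 6 of 55 genes rose and 3 fell, with a median of 0.15. Glul, glutamine synthetase, was at -0.57, -0.36 and -0.44 in vehicle and at 1.22, 0.84 and 0.66 in amiodarone pools, and rose by 1.37 (SE 0.18, adjusted p = 0.00512). Prodh, which starts proline breakdown, rose by 1.23 (SE 0.26, pool-out adjusted p = 0.104), and Aldh18a1, which starts proline synthesis, fell by 1.18 (SE 0.27, pool-out adjusted p = 0.127, normexp -0.68). Arg1, arginase 1, fell by 1.25 (SE 0.18, normexp -0.66). Among aldehyde dehydrogenases, reductases and esterases, Aldh3a1 rose by 1.12 (SE 0.15), the aldehyde oxidase Aox1 by 1.28 (SE 0.20), and the carboxylesterase Ces1c fell by 1.61 (SE 0.17).

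Retinoic acid is made from retinol inside cells and acts through nuclear receptors. Of 21 retinoid and vitamin genes 1 rose and 4 fell. Cyp26b1, which degrades retinoic acid, was at -0.21, -0.03 and -0.38 in vehicle and at 1.61, 1.39 and 1.43 in amiodarone pools, and rose by 1.68 (SE 0.15, adjusted p = 0.00117). Crabp2, which delivers retinoic acid to its receptor, was at 1.28, 1.16 and 1.26 against 0.13, -0.30 and 0.15, and fell by 1.24 (SE 0.16, adjusted p = 0.00575).

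At the cell surface and in the matrix, lower calls outnumbered higher ones in most lists. The annexin, S100 and galectin list went the other way, with 4 of 24 higher and 3 lower, or 29.2% called. Of 25 serpins and other protease inhibitors 3 rose and 4 fell. Cst3, the cysteine protease inhibitor cystatin C, was at 7.49, 7.31 and 7.60 in vehicle and at 8.34, 8.28 and 8.52 in amiodarone pools, and rose by 0.91 (SE 0.15, pool-out adjusted p = 0.0502). Serpinh1, the collagen chaperone HSP47, was at 4.85, 5.25 and 5.25 against 3.95, 3.49 and 3.75, and fell by 1.39 (SE 0.18, adjusted p = 0.00573). Wfdc1 fell by 1.03 (SE 0.14). Of 41 genes of the ADAM, ADAMTS, ADAMTS-like and related families 3 rose and 5 fell. Cpa6 had the largest difference of the list and was called higher, at 3.89 (normexp 1.34). The other rises were Adam8, at 0.64 (pool-out adjusted p = 0.162, normexp 0.33), and Htra4, at 0.55 (pool-out adjusted p = 0.138). Fap, the protease of activated fibroblasts, fell by 0.98 (SE 0.15, normexp -0.52). The ADAMTS-like gene Adamtsl2 fell by 1.5 (SE 0.23, normexp -0.89). The sheddase Adam17 fell by 1.16 (SE 0.20, pool-out adjusted p = 0.067, normexp -0.53). F3, tissue factor, rose by 1.25 (SE 0.21, pool-out adjusted p = 0.0621).

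Of 33 tetraspanins and CD surface proteins 6 fell and 2 rose, with a median of -0.17. Cd63, a tetraspanin of late endosomes and lysosomes, was at 6.19, 6.27 and 6.18 in vehicle and at 7.0, 7.14 and 7.02 in amiodarone pools, and rose by 0.84 (SE 0.13, adjusted p = 0.01, pool-out adjusted p = 0.0569). Cd248, a marker of pericytes and stromal fibroblasts, fell by 1.02 (SE 0.17, pool-out adjusted p = 0.0625). Of 14 integrin genes 3 fell and 0 rose, beside 4.11% lower over all features. Itga6 was among them, with a fall of 1.26 (SE 0.26, pool-out adjusted p = 0.106, normexp -0.47). Of 31 semaphorins, ephrins, netrins, slits and plexins 4 fell and 0 rose, Plxnd1 included; the median of -0.25 was 0.01 after normexp, and 0 were called without vehicle pool 1, 2 or 3. Of 45 cadherins and junction genes 2 rose and 0 fell, beside 8.31% called over all features.

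The heart changes were set against those in blood in 1 limma fit of all 12 arrays. That test covered 5501 features above background on every array, of which 59.6% passed it, with the heart difference above that in blood at 21.2% and below it at 38.4%; vehicle and amiodarone blood arrays differed in brightness, at a 75th percentile of 24 ± 2.80 (SD, n = 3) and 73.8 ± 15.6 (SD, n = 3). Of 178 called heart genes taken by the naming rule 83 could be tested and 46 passed, and 30 of these also passed with normexp, with array median scaling and with each pool left out. In 24 of the 30 the signs were opposite, and in 19 of these 24 the blood effect was itself past the threshold. Signs are relative to each array's 75th percentile, and the median blood difference over the 5501 features was 0.49. Opposite signs were not counted over those features. Actg1 fell by 1.21 in heart and was 0.77 in blood, Cd93 fell by 1.40 and was 1.96, and S1pr2 fell by 1.20 and was 0.65. Glul rose by 1.37 in heart and was -1.14 in blood. Rhobtb1 was higher in both tissues, at 2.40 and 1.05, and the tissues differed by 1.36 (adjusted p = 0.0001).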

How the data were processed

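Total RNA was labelled with Cy3 and hybridised to a single-colour Agilent rat oligonucleotide array, 1 array per pool. Per the file headers, the deposited scanner files hold for each spot an intensity (processed signal, after background subtraction and detrending) from Agilent Feature Extraction 9.5.1.1, with no normalization between arrays, beside raw mean and background intensity. The authors' deposited value table holds normalized intensity on a linear scale, by a method not given in the sources used here. Its shift from the scanner values varied by array, so it served as an alternative.

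Outlier spots were left out, spots of a probe were averaged in log2, and each array was scaled to its 75th percentile. A probe was tested if all 3 arrays of either group were well above background, with the brightest probe standing for a symbol. Of 41012 probes, 16506 were named by accession, 3537 by symbol and 1067 by synonym through RefSeq, 219 matched several genes, and 19683 kept the file's name. The 6 heart arrays were fitted without blood in R 4.3.3 by limma 3.58.1 (two-sided, Benjamini-Hochberg, threshold 0.05), tested on simulated data. An exact permutation test of 3 against 3 pools cannot go below p = 0.1. For a probe below background on every array of 1 group, "at least" folds use the higher of its own signal and the dimmest signal well above background on each array.

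The members and the 62 lists, with the cell type markers, were chosen with earlier results of these data known, so a list's count is not independent evidence. Named genes include the 15 largest rises and falls each among called, non-overlapping genes well above background on all heart arrays. Up to 3 called members per list (2 uncalled where none was called) and a few fixed genes were added. The fixed genes are Gal, Igf1, Igf2, Klf15, Trim63, Fbxo32, Foxo1 and Gata4, with H19 and Tbx5 not tested. A few genes are not reported here. Further called members are named, and these were chosen after their values were seen. Same-numbered pools did not all deviate together (r of -0.17, -0.24 and 0.32), so numbers were not used to pair pools. Probe positions are rn4 as deposited. Alternatives covered background correction (normexp, offset 50), scaling, filter, probe choice, spread model, slide, replicate block and each pool left out.

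The other marker lists gave few calls. Called higher and lower were 0 and 0 of 4 smooth muscle, 0 and 0 of 2 mesothelial, 0 and 0 of 2 adipocyte, 0 and 0 of 3 mast cell, 0 and 0 of 2 T cell, 0 and 1 of 1 B cell (Fcer2), 0 and 0 of 4 natural killer cell, 1 and 1 of 3 platelet, 0 and 0 of 2 hepatocyte and 0 and 0 of 1 skeletal muscle markers tested.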

Additional observations from a re-analysis of the deposited data

Results flagged for a closer look

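For 83 called heart genes the difference between the heart and blood effects was itself tested, in the limma fit of all 12 arrays. The genes were chosen by their call on the same heart arrays, so the heart side is not independent of the choice. Of the 83, 46 passed, beside 59.6% of all 5501 features in that fit. In 24 genes the effects had opposite signs and the difference also passed with normexp, with the array median and without each pool. Opposite signs were not counted over all features, so the 24 have no share to be read beside. The blood effect was itself past the threshold in 19 of them and not in the other 5, Sox4 included. The median blood difference over all features in that fit was 0.49. The 4 with the smallest p are given for each heart direction. Aqp1 differed by 3.13 (heart 0.64, blood -2.49; adjusted p = 3.52e-05), Gpcpd1 by 2.52 (heart 1.14, blood -1.38), Slc3a2 by 2.46 (heart 0.89, blood -1.57) and Slc22a18 by 2.04 (heart 0.74, blood -1.29); the heart call of Slc22a18 had an adjusted p of up to 0.0775 with a pool left out. Among genes lower in heart, Ret differed by -3.77 (heart -2.12, blood 1.64; adjusted p = 1.83e-06), Clic1 by -2.06 (heart -0.70, blood 1.36), the DnaJ family member Dnajc22 by -1.96 (heart -1.18, blood 0.78) and Sox4 by -1.78 (heart -1.72, blood 0.07, not called in blood at an adjusted p of 0.637). The blood arrays differed in brightness between treatments, at a 75th percentile of 20.9 to 26.2 in vehicle and 56.8 to 87.5 in amiodarone pools, and the part of this in the differences was not tested.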

How the results depend on the processing

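The count of 1477 calls (747 higher, 730 lower) was 745 with no scaling (228 higher), 292 with no filter on dim probes (125 and 167), 270 in the first slide alone (110 and 160) and 673 with the replicate block (315 and 358). The block was fitted although the numbers do not pair the pools. Leaving out 1 pool gave 521 to 1375 calls, 254 to 678 higher and 267 to 697 lower. The count was 1907 with an intensity trend in limma, 1438 with normexp, 1445 with quantile scaling, 1617 with array median scaling and 1339 in the authors' table. Array median scaling moved the median of all features from 0.02 to 0.11 and no scaling moved it to -0.11. Of the 1477 calls, 1035 were shared with normexp, and 226 of the 277 called named genes kept their call there. Foxo1, not called at -0.03, was 0.058 with array median scaling and -0.22 to 0.19 with a pool left out (0.031 without vehicle pool 1, 0.19 without amiodarone pool 1). The 3277 features whose heart and blood effects differed were 610 with normexp and 2845 to 3388 with a pool left out. The cause of these shifts was not tested. The number of arrays limits the precision.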
